A study of Mus musculus with 16 samples.

Results

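The nucleus pulposus (NP), the gel at the centre of the intervertebral disc, was compared with the annulus fibrosus (AF), the fibrous ring around it, in mice that had lost Sox9. The comparison rests on 8 of the 16 arrays of the series, the NP and the AF array of each of 4 conditional knockout animals (cKO, titled M1 to M4), and the other 8 arrays, from 4 control animals (CTR, C1 to C4), serve as its reference. All mice were female and carried loxP sites in both Sox9 alleles (Sox9fl/fl), and were aged to 3 to 4 months. The cKO mice also carried AcanCreERT2, a Cre that works only after tamoxifen and is driven by Acan, so that recombination is limited to cells that express aggrecan. They received tamoxifen on 2 consecutive days, and tissue was collected 5 days after the first injection. The labels name neither a Cre nor an injection for the controls, so the drug, the Cre and the loss of Sox9 cannot be told apart here. Each array holds RNA of the microdissected tissue of caudal and lumbar discs pooled for 1 animal, so that fewer cells of a type and less RNA per cell cannot be told apart. Tested were the probe sets for transcripts on the array, 22206 of 28846 in all, of which 19572 carry a gene symbol for 19505 genes.

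Sox9 is a transcription factor that binds DNA through an HMG box and, together with Sox5 and Sox6, drives the cartilage gene programme, with collagen II and aggrecan among its best-known targets. The NP of the mouse descends from the notochord and keeps epithelial-type keratins and desmosomes in a tissue without vessels, whereas the AF descends from the sclerotome and grades from fibrous lamellae rich in collagen I to cartilage near the endplate and bone. Both tissues express Sox9, so its loss can act on either side of the comparison. The questions were which NP and AF differences persist without Sox9, which are smaller and which are seen in cKO alone.

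Values are log2 signals, and differences are NP minus AF within an animal, so that a positive difference is higher in NP. Each difference was fitted with limma across all 16 arrays with the animal as a block, SE is the standard error of that fit, and adjusted p is the Benjamini-Hochberg value over all 22206 probe sets, called when under 0.05. The number of arrays, 4 animals per genotype, limits the precision, with a median SE of 0.24 for a difference in cKO and 0.34 for the difference between genotypes. Background was taken as the highest array median of 5222 negative control probe sets, 6.59, and 42.6% of all probe sets had both cKO means under it. Folds against a group under background are therefore lower bounds from 6.59. Log2 differences are as fitted, and where a mean lies under background the smaller difference counted from 6.59 is given for genes it moves far and for list medians. Signals near 19.93, the highest on the arrays, may be close to their ceiling. Arrays of 1 tissue correlated with r from 0.970 to 0.979 in NP cKO and from 0.966 to 0.977 in AF cKO, and NP with AF from 0.891 to 0.957.

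The dissection labels were checked against markers of both tissues. Of 31 measured genes of AF, tendon and fibrous matrix, 26 were higher in AF of cKO mice and none in NP. Their median difference was -2.84 (-2.37 counted from background) against 0.04 over all 19505 genes. Over all probe sets 12.4% were called higher in AF and 12.8% higher in NP. Of 21 notochordal and NP markers, 8 were higher in NP (Krt8, Krt18, Krt19, Cd24a, Cdh2, Lgals3, Rab38 and Etl4) and 6 in AF (Pax1, Foxf1, Tek, B4galnt1, Nog and Foxa2). Of these 6, B4galnt1, Nog and Foxa2 had both cKO means under background, and counted from it Tek differed by only -0.13 and Foxf1 by -0.96. Without M3 the NP count was 5. Each of these 14 was called in the same direction in CTR. Some arrays stand apart. The NP array of M4 held cartilage and AF genes at levels the other NP arrays lack: its mean over the cartilage list was 8.77 against 7.73 to 7.97 in the other NP cKO arrays, and over the fibrous list 8.90 against 8.0 to 8.23. The AF array of M3 had the highest mean for bone cells (11.95 against 8.86 to 10.48 in the other AF cKO arrays) and for neutrophils, and those of M2 and M4 for skeletal muscle. Values without the animal are given for some, not all, of the genes and lists named below that moved with these arrays. Without M3 the NP count of the hypoxia and glycolysis list fell from 19 to 14. The AF count fell from 16 to 13 for the cartilage list, and from 10 to 7 for the hedgehog and for the glycosaminoglycan list.

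In cKO discs 5580 probe sets (25.1%) differed between NP and AF, 2834 higher in NP and 2746 higher in AF. The control discs gave 4175 (18.8%), 2046 higher in NP (9.21%) and 2129 higher in AF (9.59%). Called in both genotypes in the same direction were 2790 (12.6%), 1186 higher in NP (5.34%) and 1604 higher in AF (7.22%), and only 2 were called in opposite directions. These 2790 are 66.8% of the control calls and 50% of the cKO calls. Among the 5580 cKO calls, 5351 (95.9%) had the same sign in all 4 animals, which largely follows from calling them on these same 4 pairs. The 4 NP and 4 AF signals did not overlap at all for 26.8% of probe sets in cKO and 22.6% in CTR. The difference between the genotypes was called for no probe set (0%) by limma, with 1599 (7.2%) at an unadjusted p under 0.05 where 1110.3 are expected by chance and a smallest adjusted p of 0.124. A gene called in 1 genotype alone is thus not shown to differ between them. Moving each array to a common median shifts all differences by 0.07 in cKO and 0.13 in CTR, which changed the NP-higher share of calls from 49% to 64.6% in CTR, from 50.8% to 59.3% in cKO, and from 42.5% to 56.4% of those called in both. The cKO share was 44% without M3, 40.5% with dim probe sets left out and 31.2% with low signals raised to background, so that the even split of calls does not hold under these settings.

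The large differences lay on the AF side in both genotypes, and they recurred in cKO. Of the 138 control probe sets at least 4 log2 units higher in AF, 138 were called in the same direction in cKO, as were 467 of 483 at 2 units or more and 1196 of 1349 at 1 unit or more. On the NP side, 85 of 92 at 2 units or more and 648 of 951 at 1 unit or more were called again. The count of NP-higher calls of 2 units or more was 28 in cKO and 92 in CTR, while that of 1 unit or more was 1268 in cKO and 951 in CTR. For control calls the median ratio of the cKO to the CTR difference was 0.758 on the NP side and 0.899 on the AF side, and selecting on the control value by itself lowers such a ratio. Selected on cKO instead, the ratio of CTR to cKO was 0.671 and 0.801, and among those called in both the median cKO to CTR ratio was 0.937 (NP-higher) and 0.996 (AF-higher). Across all probe sets the differences in cKO and CTR, from separate animals, correlated with r = 0.846 (Spearman 0.732), which describes genes that are not independent replicates.

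**Figure D1:**
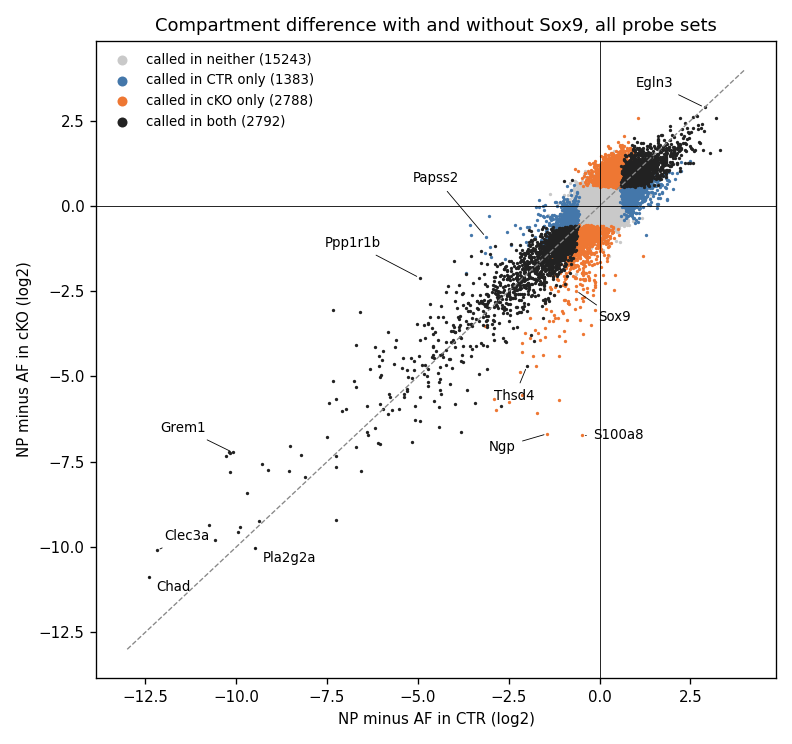
NP minus AF log2 difference in cKO (vertical axis) against the same in CTR (horizontal axis) for the 22206 probe sets, coloured by the genotype in which each was called. Points lie along the diagonal, with AF-higher differences reaching -10.88 in cKO and -12.4 in CTR and NP-higher ones reaching only 2.89 and 3.31.

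Of the 12 genes with the largest NP-higher differences in cKO, Egln3, Ndrg1 and Bnip3 belong to the hypoxia list and Dsp, Dsc3 and Krt7 to the list of keratins and desmosomes. Egln3, a prolyl hydroxylase that is induced by and limits hypoxia-inducible factors, had signals of 15.17, 16.74, 15.97 and 14.74 in NP of M1 to M4 and 12.89, 12.53, 11.95 and 13.68 in their AF. The NP arrays all lay above the AF arrays, with the gap narrowest in M4. The difference was 2.89 (SE 0.42, adjusted p = 0.000582), or 7.42-fold, and it was also 2.89 in CTR. Ndrg1, a stress-responsive gene that rises in low oxygen, differed by 2.64 in cKO (SE 0.41, adjusted p = 0.00092) and 2.67 in CTR, and Bnip3, a mitophagy receptor, by 2.28 (SE 0.39, adjusted p = 0.00157) and 2.58. Without M4 the cKO differences were 3.5, 3.27 and 2.87 for Egln3, Ndrg1 and Bnip3.

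Of 32 measured genes of hypoxia and glycolysis, 19 were higher in NP of cKO mice and none in AF, with a median difference of 1.20, and in CTR 20 were higher in NP and 1, Hif1a, in AF, with a median of 1.21. The 19 include the glucose transporters Slc2a1 (1.6) and Slc2a3 (1.99), the glycolytic enzymes Hk2 (1.59), Pfkl (1.42), Pgk1 (1.18) and Eno2 (2.14), and the vessel growth factor Vegfa (1.55). The transcription factor genes Hif1a (-0.56) and Epas1 (-0.12) were not called in cKO. The list mean per array was 13.42, 13.87, 13.77 and 13.04 in NP and 12.49, 12.68, 12.04 and 12.65 in AF of M1 to M4, so that the tissues did not overlap and the gap was smallest in M4 (0.39) and largest in M3 (1.73).

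Desmosomes join cells through cadherins anchored to keratin filaments. Dsp, which links cadherins to the filaments, had NP signals of 14.30, 15.06, 14.76 and 14.45 and AF signals of 12.51, 11.95, 10.99 and 12.67 in M1 to M4. The tissues were apart in every animal, by 2.62 on average (SE 0.33, adjusted p = 0.000236), and by 2.56 in CTR. The desmosomal plaque and cadherin genes Pkp1 (2.04), Pkp2 (1.56), Dsg2 (1.81), Dsc2 (1.68) and Dsc3 (2.37) and the junction protein Perp (2.20) were also called higher in NP, each in CTR as well. Krt8, a keratin of simple epithelia and notochord, had NP signals of 16.13, 14.84, 15.80 and 15.06 and AF signals of 14.42, 13.30, 13.12 and 14.04 in M1 to M4. Its tissues did not overlap, and the difference was 1.74 (SE 0.26, adjusted p = 0.000793) against 2.06 in CTR. Its partners Krt18 and Krt19 differed by 1.83 and 1.61 in cKO and by 2.18 each in CTR. Of the 25 genes of keratins, desmosomes and epithelial junctions, 11 were higher in NP and 3 in AF (Cldn1, Jup and Cdh1), with a median of 0.70, and 10 and 2 in CTR with a median of 0.31; counted from background both medians are 0. The list is thus not uniformly an NP list, since Cldn1, a tight junction protein, and Jup lay on the AF side, as did the epithelial cadherin Cdh1 with both means under background.

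Other NP-higher genes had varied roles. Tnfrsf11b, the decoy receptor osteoprotegerin that blocks osteoclast formation, differed by 2.59 in cKO (SE 0.26, adjusted p = 3.79e-05) and 2.22 in CTR. Rgs9bp, an anchor of a regulator of G protein signalling, differed by 2.59 and 3.21, the muscarinic receptor gene Chrm2 by 2.29 and 2.79, and the surface protein Cd248 by 2.27 and 2.27. The osmolyte transporter Slc6a12, which imports betaine, differed by 2.08 and 1.99. Lgals3, a galectin of NP cells, had NP signals of 17.98, 18.17, 18.40 and 16.86 and AF signals of 15.98, 16.96, 15.14 and 16.79 in M1 to M4, so that in cKO the tissues overlapped through M4. Its difference was 1.63 (SE 0.39, adjusted p = 0.0103) in cKO, 2.15 without M4, and 2.63 in CTR, and the difference between genotypes, -1.0 (SE 0.56, 95% interval -2.20 to 0.20), did not pass (adjusted p = 0.706).

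**Figure D2:**
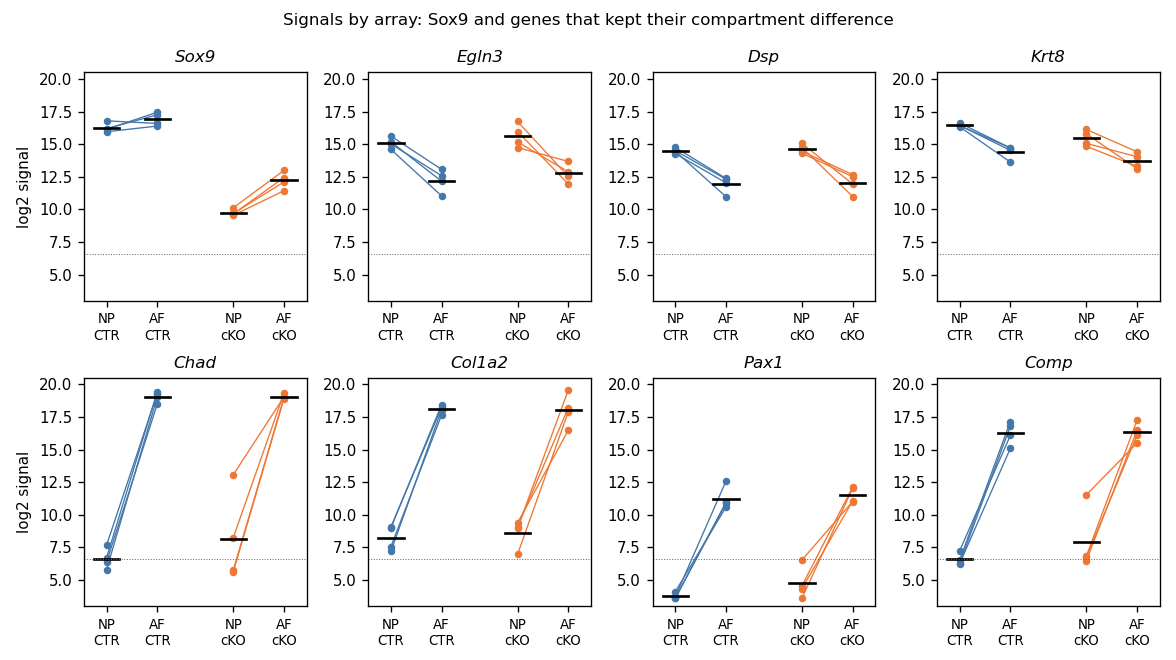
Log2 signal of 8 genes in NP and AF of each animal, cKO and CTR side by side; lines join the 2 tissues of 1 animal, black bars are group means of 4 arrays and the dotted line is the background of 6.59. Egln3, Dsp and Krt8 are higher in NP in each animal of both genotypes, and Chad, Col1a2, Pax1 and Comp are higher in AF in each. Sox9 is lower in both cKO tissues than in either CTR tissue, and above background in all.

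On the AF side the leading genes were cartilage and fibrous matrix genes. Chad, chondroadherin, a leucine-rich repeat protein of cartilage that binds collagen and integrins, had AF signals of 18.89, 18.96, 19.30 and 19.03 and NP signals of 5.61, 5.74, 8.24 and 13.06 in M1 to M4. The NP array of M4 was high among the NP arrays, and still below every AF array. The difference was -10.88 (SE 0.87, adjusted p = 8.14e-06) in cKO, -12.52 without M4, and -12.4 in CTR, and against background it was at least 1380-fold. Clec3a, a cartilage lectin, had NP signals of 4.96, 4.65, 6.45 and 10.61, so that M4 was again the high one, and differed by -10.1 (SE 0.79) in cKO, -11.46 without M4, and -12.18 in CTR. The secreted chondrocyte factor Cytl1 (-9.78 and -10.59) and the matrix protein Comp (-8.42 and -9.7) also had their highest NP signal in M4, at 12.45 and 11.53, and without M4 they differed by -11.33 and -9.90. Pla2g2a, a secreted phospholipase, did not follow that array: NP signals of M1 to M4 were 6.95, 6.55, 6.74 and 6.62 against 16.08, 17.89, 17.65 and 15.38 in AF, a difference of -10.03 (SE 0.41, adjusted p = 3.94e-08) against -9.48 in CTR.

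Col1a2, a chain of the collagen I of fibrous lamellae and bone, had NP signals of 9.09, 6.98, 8.99 and 9.39 and AF signals of 18.19, 17.88, 19.54 and 16.47. The gap exceeded 7 log2 units in each animal, and the mean was -9.41 (SE 0.49, adjusted p = 3.59e-07) in cKO and -9.89 in CTR. Col1a1 differed by -7.95 and -8.1, and Col3a1, of loose and vessel-rich tissue, by -9.21 and -7.25, or -8.57 and -6.16 counted from background. Dcn, a small proteoglycan that coats collagen fibrils, was the exception in its spread: NP signals of 7.39, 7.61, 14.12 and 18.97 in M1 to M4 overlapped the AF signals of 18.68, 19.92, 19.86 and 18.63, through M4 alone. Its difference was -7.25 (SE 1.48, adjusted p = 0.00445) in cKO, -9.78 without M4, and -10.17 in CTR. The tendon and fibroblast genes Tnc (-6.71), Lum (-6.31), Lox (-5.82) and Aspn (-4.77), and the tendon regulators Mkx (-3.13) and Scx (-1.59), were called as well, each in CTR too. From background Mkx differed by -2.28 and Scx by -0.82.

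Transcription factors of the sclerotome kept the AF side. Pax1, which patterns the sclerotome that gives rise to the AF, had NP signals of 4.35, 3.62, 4.56 and 6.54, all under background, and AF signals of 11.06, 12.02, 12.12 and 11.02. The AF was at least 31.2-fold higher in cKO, with a fitted difference of -6.79 (SE 0.50, adjusted p = 5.66e-06) and -7.49 in CTR. Of 28 such factors 20 were higher in AF of cKO mice and none in NP, with a median of -1.42, and in CTR the count was 17 and 0. Without M1 to M4 the AF count in cKO was 18, 17, 15 and 18. Of the 20, 7 had both cKO means under background, Nkx3-2 among them, and counted from background the list median was -0.68. Meox2 differed by -4.36 as fitted and -3.07 from background, Foxf2 by -3.94 and -1.39, and Pax9 by -2.0 and -1.13. Of 33 Hox genes 13 were higher in AF and 1, Hoxa4, in NP, against 14 and 5 in CTR. Of the 13, 7 had both cKO means under background, and Hoxa4 lost its call without M1, M2 or M3. Counted from background, Hoxc12 differed by -2.96 (-5.14 as fitted), while Hoxb7, with both means above it, differed by -1.72.

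Genes of mineralised and hypertrophic cartilage were all on the AF side. Each of the 14 measured members was called in cKO and 13 in CTR, with medians of -4.91 and -4.25 (-4.13 and -3.67 from background). They include the bone sialoprotein gene Ibsp (-9.56 in cKO, -9.94 in CTR), the collagenase gene Mmp13 (-7.78 and -6.56), the phosphatase gene Alpl (-6.99 and -6.03, or -4.87 and -3.77 from background) and the bone regulator Sp7 (-2.93 and -2.83). Of the osteoblast and osteocyte markers, 10 of 13 were higher in AF in cKO (9 in CTR). This list shares Bglap, Bglap2, Ibsp, Dmp1, Sp7, Alpl and Spp1 with the one above, so it is not a separate gene group. Its mean signal ran from 8.86 to 11.95 in AF cKO, 8.91 to 10.92 in AF CTR, 6.0 to 6.31 in NP cKO and 6.04 to 6.23 in NP CTR. Endothelial markers were called higher in AF too, 13 of 17 in either genotype, with 1 higher in NP in CTR. Counted from background their median was -0.55 in cKO and -0.01 in CTR, and 2 of the 13 cKO calls had both means under it. The share of bone or vessel tissue in the AF samples was not tested.

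Secreted signals and their antagonists followed the same split. Of 47 genes of TGF-beta and BMP signalling 28 were higher in AF and 1, Fstl3 (not called without M2 or M3), in NP in cKO. The cKO median was -0.99 (-0.76 from background), and the CTR counts were 26 and 1. The BMP antagonist Grem1 (-7.23), the ligands Gdf10 (-5.53) and Bmp3 (-4.72), the endothelial co-receptor Eng (-4.56) and the ligand Tgfb1 (-3.26) were called. From background Gdf10 differed by -2.74, Bmp3 by -3.64 and Eng by -3.28, and 6 of the 28 had both cKO means under it. Of 35 Wnt genes 15 were higher in AF and 1, Wnt16 (1.16, not called without M3), in NP, the 2 leading ones being the secreted inhibitors Frzb (-7.76) and Wif1 (-6.51). In the hedgehog pathway the receptor Ptch1 and the effector Gli1, both induced by the pathway's own activity, had AF-higher differences of -3.48 (SE 0.34) and -2.88 (SE 0.20) in cKO and -3.21 and -3.13 in CTR. The ligand Shh, made by notochord, was 0.55 in cKO (adjusted p = 0.071) and -0.25 in CTR, neither called. Of 25 matrix enzymes and inhibitors 15 were higher in AF, Mmp2 (-5.72), Mmp9 (-5.60) and Mmp3 (-5.50) among them, and 1 in NP, the inhibitor Timp3 (1.77). From background Mmp2 differed by -4.43, Mmp9 by -3.59 and Mmp3 by -5.07.

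**Figure D3:**
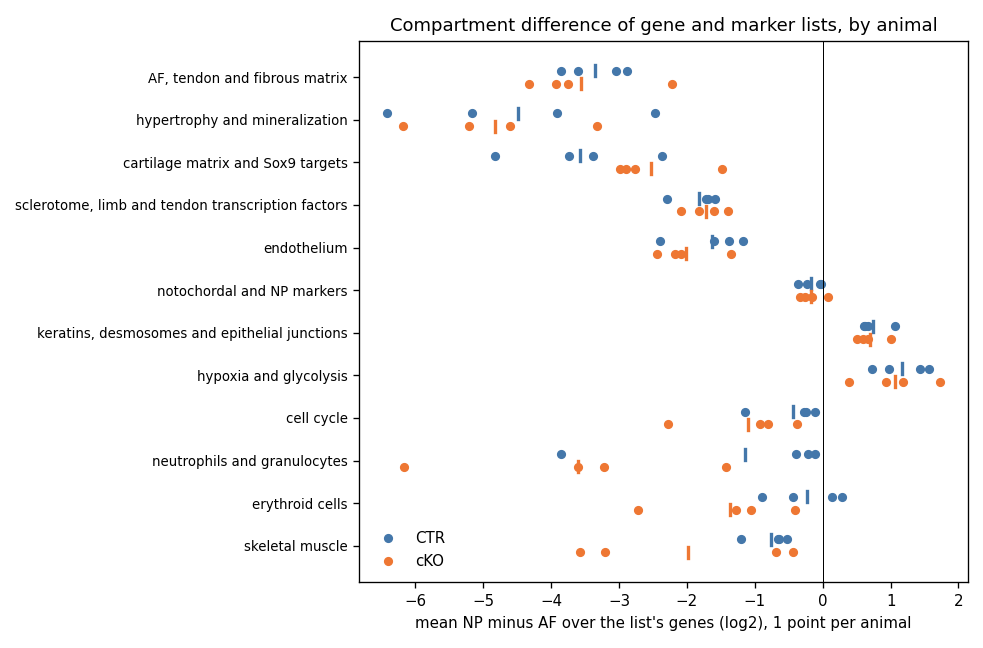
Mean NP minus AF log2 difference of 12 gene lists in each animal (points; M1 to M4 of cKO and C1 to C4 of CTR). Hypoxia genes lie between 0.39 and 1.73 in cKO and 0.73 and 1.56 in CTR, fibrous genes between -4.33 and -2.22 and between -3.85 and -2.89, while neutrophil genes spread from -6.17 to -1.43 in cKO and from -3.85 to -0.11 in CTR.

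Sox9 itself differed between the compartments of cKO discs. Its signals were 9.69, 9.55, 10.12 and 9.65 in NP and 12.10, 11.43, 12.99 and 12.44 in AF of M1 to M4, against 16.19, 16.14, 16.79 and 15.95 in NP and 17.25, 17.45, 16.59 and 16.39 in AF of C1 to C4. Every AF cKO array lay above every NP cKO array, and both lay far below all control arrays. The NP was lower by 5.60-fold in cKO (-2.48, SE 0.26, adjusted p = 5.9e-05), while in CTR the difference of -0.65 (SE 0.26) was not called (adjusted p = 0.105). The difference between genotypes was -1.83 (SE 0.37, 95% interval -2.64 to -1.02) with an unadjusted p of 3e-04, and it did not pass over all probe sets (adjusted p = 0.667). The labels do not place the array's Sox9 probes inside or outside the deleted part of the gene. Of the other SOX factors, Sox6 (0.74), a partner of Sox9, and Sox12 (1.52, or 0.59 from background) were higher in NP of cKO mice, while Sox5 was -0.46 and not called. Sox2, Sox18 and Sox4 were called as well, with both cKO means under background, so that no side is given for them.

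Cartilage matrix genes and known Sox9 targets lay on the AF side in both genotypes, with the median nearer to 0 in cKO (counted from background -1.01, against -2.55 in CTR), and no member passed the test between genotypes. Of 29 measured, 16 were higher in AF in cKO and 22 in CTR, and 2 in NP in each (in cKO 0 without M3 and 4 under median centring), with medians of -2.11 and -2.62. The median difference between genotypes was 0.88, and 9 members had an unadjusted p under 0.05 against 7.2% of all probe sets. The mean of the list in AF was 10.70, 10.50, 10.95 and 10.25 in cKO and 13.06, 12.24, 10.83 and 11.60 in CTR, so that C3 lay within the cKO range. In NP it was 7.73 to 8.77 in cKO and 8.21 to 8.50 in CTR. Of the pairs, M1 to M4 gave -2.90, -2.77, -2.98 and -1.48 and C1 to C4 gave -4.82, -3.74, -2.37 and -3.39, and without M4 the median difference between genotypes was 0.75. Col2a1, the main collagen of cartilage, differed by -4.41 in cKO and -6.06 in CTR, Cnmd, chondromodulin, by -7.34 and -10.28, and the matrix protein genes Ucma by -4.07 and -6.7 and Matn3 by -3.04 and -7.33. From background Ucma was -2.76 and -6.24 and Matn3 -0.30 and -4.75. Other members were at least as far apart in cKO: Col11a1 (-4.66 and -4.23), Hapln1 (-2.32 and -2.18), Cilp2 (-4.94 and -4.83) and Epyc (-2.11 and -2.07). These 8 were chosen after their values were seen.

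Acan, which encodes aggrecan and also drives the Cre, had cKO signals of 17.62, 18.90, 17.21 and 17.66 in NP and 17.01, 18.23, 16.37 and 16.89 in AF of M1 to M4. NP was the higher in each animal, and the tissues overlapped because M2 was high in both. The cKO difference was 0.72 (SE 0.19, adjusted p = 0.0145) and was lost without the block (adjusted p = 0.128) and without M3 (adjusted p = 0.0649). In CTR, with signals of 18.80 to 19.31 near the ceiling, it was -0.14 (adjusted p = 0.647), and the difference between genotypes, 0.86 (SE 0.26, 95% interval 0.29 to 1.43), did not pass (adjusted p = 0.687). Papss2, the enzyme behind the sulfate donor used on proteoglycans, had AF signals of 12.16, 12.10, 12.51 and 11.94 in cKO and 16.89, 15.09, 12.71 and 14.92 in CTR, and NP signals of 11.22 to 11.30 and 11.34 to 12.28. Its NP minus AF difference was called in CTR (-3.13) and not in cKO (-0.91, adjusted p = 0.224), and the difference between them was 2.22 (SE 0.75, 95% interval 0.60 to 3.84, adjusted p = 0.687). The collagen IX gene Col9a3 (-0.77 in cKO, -2.55 in CTR), the carbonic anhydrase gene Car12 (-0.55, with both means under background, and -3.57), the pyrophosphatase gene Ppa1 (-0.28 and -3.05) and the amino acid transporter gene Slc38a3 (-0.84 and -3.53, or -0.46 and -3.19 from background) were likewise called in CTR alone in the fit of all 16 arrays. With the 8 cKO arrays fitted alone in limma, Papss2 (adjusted p = 0.00967), Slc38a3 (adjusted p = 0.0174) and Col9a3 were called in cKO too. Col9a3 was also called in cKO without C1. Car12 and Ppa1 were not called in cKO under any alternative, so the absence of a cKO call depends on the fit for the former genes. In AF CTR, C1 had the highest and C3 the lowest signal of Car12 (11.42 and 5.69), Ppa1 (16.19 and 10.23) and Slc38a3 (12.28 and 6.6), the order of the cartilage list, and the part of cartilage content in these differences was not tested.

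**Figure D4:**
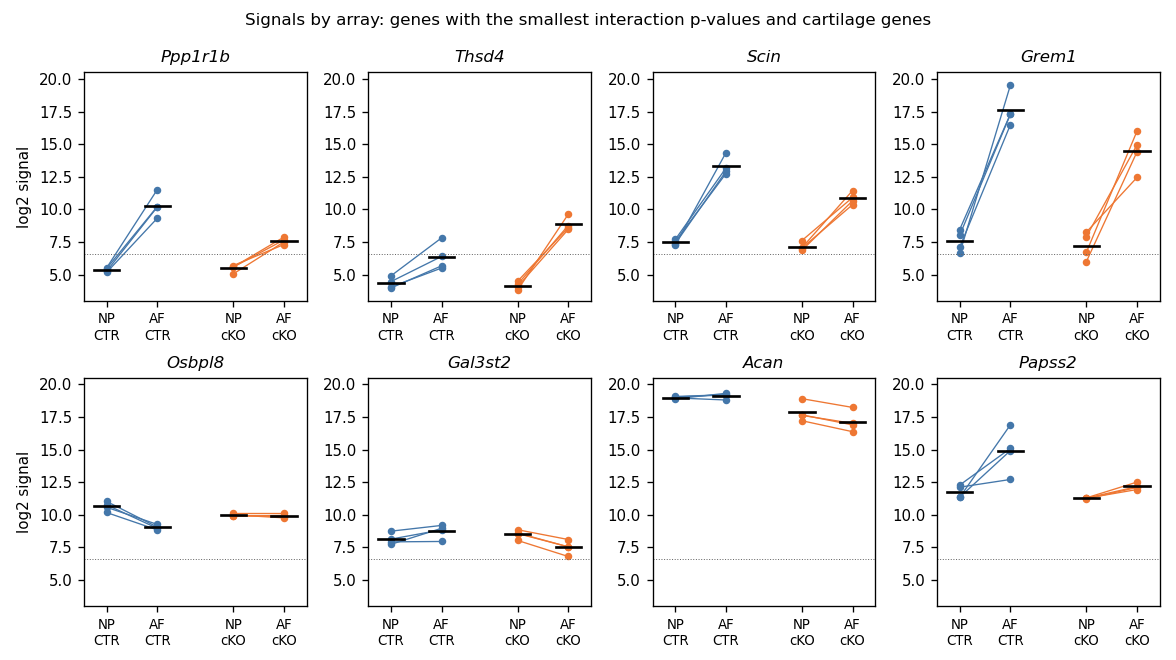
Log2 signal of 8 genes whose compartment difference had a low unadjusted p between genotypes or was called in 1 genotype, drawn by animal with group means (black bars) and the background of 6.59 (dotted). AF signals of Ppp1r1b, Scin, Grem1 and Papss2 are lower in cKO than in CTR and those of Thsd4 higher, without overlap between genotypes.

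The smallest p of the difference between genotypes belonged to Ppp1r1b, an inhibitor of protein phosphatase 1. Its AF signals were 7.51, 7.66, 7.88 and 7.31 in M1 to M4 and 10.18, 11.51, 9.32 and 10.21 in C1 to C4, without overlap, while its NP signals lay between 5.06 and 5.70 in both genotypes, under background. The NP minus AF difference was -2.11 in cKO and -4.95 in CTR, or -1.0 and -3.71 when counted from background, and the difference between them was 2.84 (SE 0.38, unadjusted p = 5.56e-06, adjusted p = 0.124, 95% interval 2.01 to 3.67). Scin, which severs and caps actin filaments, had AF signals of 10.37, 10.67, 11.45 and 10.92 in cKO and 13.17, 14.35, 12.92 and 12.75 in CTR, again apart, and NP signals of 6.87 to 7.70 over both. It was -3.70 and -5.82, a difference of 2.12 (SE 0.42, adjusted p = 0.624). Thsd4, a microfibril-associated matrix protein, went the other way: AF signals of 8.77, 8.47, 8.60 and 9.63 in cKO lay above 7.82, 6.4, 5.51 and 5.68 in CTR, with NP under background. It was -4.70 and -2.0, or -2.28 and -0.31 from background. The difference between them was -2.70 (SE 0.42, adjusted p = 0.275), or -1.97 from background. Grem1, with AF signals of 14.41, 12.45, 16 and 14.95 in cKO, all below 16.48 to 19.51 in CTR, had a difference of 2.86 (SE 1.03, adjusted p = 0.687), and the related BMP antagonist Chrdl2, with -3.10 and -6.6, one of 3.49 (SE 0.77, adjusted p = 0.687). From background Chrdl2 was -1.78 in cKO, where its call was lost (adjusted p = 0.0505), and -4.75 in CTR.

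The other genes with a small p between genotypes had varied roles. Osbpl8, a lipid transfer protein of the endoplasmic reticulum, was 1.6 higher in NP of CTR (adjusted p = 0.000145), with NP signals of 10.18 to 11.03 over AF signals of 8.85 to 9.27. In cKO both tissues lay between 9.77 and 10.12, lower than CTR in NP and higher in AF, and the difference was 0.06 (adjusted p = 0.844). The difference between genotypes was -1.54 (SE 0.28, adjusted p = 0.624). Cd36, a fatty acid receptor, was 1.28 higher in NP of CTR and -0.84, not called, in cKO, and the carbonic anhydrase gene Car1 was -1.47 in cKO and 1.19, not called, in CTR, a marker shared with red cells. Between genotypes Cd36 differed by -2.12 and Car1 by -2.66 (adjusted p = 0.687 each, limma). The Car1 call was lost without M1, M2 or M3 (adjusted p up to 0.102), and Cd36 was called in cKO without M3 (adjusted p = 0.0388). Gal3st2, a sulfotransferase acting on galactose, was higher in NP of each cKO animal (1.02, SE 0.22, adjusted p = 0.00588) and higher in AF of each CTR animal (-0.60, SE 0.22, adjusted p = 0.0745), though signals of the tissues overlapped in both genotypes. The last of the 12 genes with the smallest p were Xdh (-1.43 between genotypes), Nmur1 and Ube2u, each with an adjusted p from 0.624 to 0.687. Nmur1 had both cKO means under background and Ube2u all 4 group means, so their differences are not read.

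**Figure D5:**
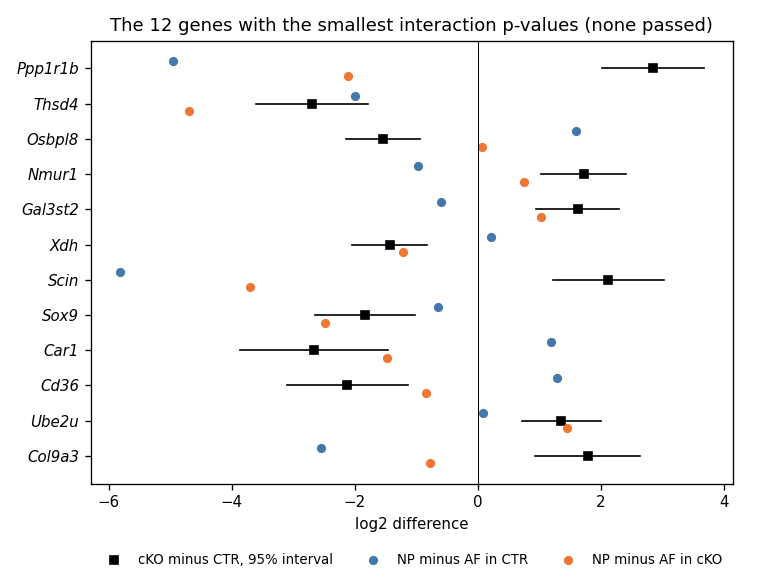
NP minus AF log2 difference of the 12 genes with the smallest unadjusted p between genotypes, in cKO and in CTR (circles), with the difference between genotypes (squares) and its 95% interval, as fitted over 16 arrays. The widest gap between genotypes is in Ppp1r1b, -2.11 against -4.95, and no gene passed over all probe sets (smallest adjusted p 0.124).

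Differences called in cKO alone were led by markers of blood and muscle cells in the AF. Among the 8 with the largest gap between genotypes, H2ac15 (-4.41 in cKO, -1.12 in CTR) alone was outside these marker lists. S100a8, a calcium-binding protein of neutrophils, had AF signals of 16.39, 15.89, 16.20 and 13.05 in M1 to M4 and NP signals of 9.88, 10.59, 4.72 and 9.42. The tissues were apart in each cKO animal (-6.73, SE 1.21, adjusted p = 0.00211), while in CTR only C1 had a high AF signal, 15.21 against 5.34 to 9.74 in the others, and the difference was -0.48 (adjusted p = 0.82). The difference between genotypes, -6.25 (SE 1.71, 95% interval -9.96 to -2.55), did not pass (adjusted p = 0.687). Ngp, a granule protein (-6.68 and -1.44), S100a9 (-6.06 and -1.72), Retnlg (-5.70 and -1.12), Chil3 (-3.97 and -0.96) and Mpo, myeloperoxidase (-3.74 and -0.46), had the same pattern, and Mpo lost its call without M3 (adjusted p = 0.0841). Of 19 neutrophil markers 16 were higher in AF of cKO mice and 2 in CTR, and their mean in AF was 8.42 to 11.79 in cKO and 6.18 to 10.40 in CTR. Without M3 the count was 13.

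Skeletal muscle markers were higher in AF for 18 of 26 in cKO and 2 in CTR, with medians of -2.0 and -0.62. Counted from background these medians were -0.99 and 0, and 3 of the 18 had both cKO means under it. The AF mean of the list was 9.30 and 8.91 in M2 and M4 but 6.57 and 6.27 in M1 and M3, against 6.22 to 6.97 in CTR. Myh2, a fast myosin, was 12.48 and 10.97 in those 2 arrays and at most 6.6 in the other AF cKO arrays, and its call was lost without M2 or M4 (adjusted p up to 0.063). The count for the list was 8 without M2 and 9 without M4. Erythroid markers (7 of 11 in cKO, 2 in AF and 2 in NP in CTR) and cell cycle genes (13 of 28 against 4) were also higher in AF, both with their largest gap in M3 (-2.72 and -2.28), whose AF array had the highest neutrophil and erythroid means. Without M3 they counted 4 and 7. The part of blood, marrow or muscle in the dissected AF was not tested.

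Sequences upstream of 4 genes are shown as examples, 1 per pattern: Egln3 and Chad for differences kept on the NP and the AF side, and Scin and Thsd4 for AF signals that were lower and higher in cKO. They are the 250 bases before the RefSeq start on build GRCm38.p6, in the direction of the gene, at chr12:54203875-54204124 (minus strand) for Egln3, chr11:94564797-94565046 (plus) for Chad, chr12:40134229-40134478 (minus) for Scin and chr9:60511036-60511285 (minus) for Thsd4, the first of its 2 windows. Capitals mark matches to the core letters bound by SOX proteins, searched as ACAAT and ACAAAG on both strands.
Egln3: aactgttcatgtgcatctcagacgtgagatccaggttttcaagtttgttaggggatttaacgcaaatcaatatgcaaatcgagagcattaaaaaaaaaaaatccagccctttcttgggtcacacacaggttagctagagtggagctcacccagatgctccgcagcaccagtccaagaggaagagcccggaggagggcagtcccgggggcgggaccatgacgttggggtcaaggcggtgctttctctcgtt
Chad: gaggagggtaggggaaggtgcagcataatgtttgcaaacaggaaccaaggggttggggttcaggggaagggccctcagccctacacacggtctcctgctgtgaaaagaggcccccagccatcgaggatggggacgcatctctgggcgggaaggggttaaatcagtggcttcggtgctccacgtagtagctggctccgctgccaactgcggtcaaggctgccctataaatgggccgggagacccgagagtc
Scin: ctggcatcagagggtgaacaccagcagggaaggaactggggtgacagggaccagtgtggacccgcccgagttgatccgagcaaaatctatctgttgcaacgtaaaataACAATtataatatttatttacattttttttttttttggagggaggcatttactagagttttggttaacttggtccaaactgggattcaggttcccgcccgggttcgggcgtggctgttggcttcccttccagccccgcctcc
Thsd4: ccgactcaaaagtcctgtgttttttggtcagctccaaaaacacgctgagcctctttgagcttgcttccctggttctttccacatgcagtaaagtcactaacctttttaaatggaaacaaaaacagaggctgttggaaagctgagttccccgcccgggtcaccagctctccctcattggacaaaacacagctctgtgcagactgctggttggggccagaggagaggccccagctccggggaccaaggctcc
Only Scin holds a match, 142 bases before the start. Such short letters are common: 38.8% of all 32851 windows hold one, as do 34.4% of windows of genes measured, 35.1% of those called in cKO, 33.2% of those called in both genotypes and 36% of those with an unadjusted p under 0.05 between genotypes. Of the 12 genes with the smallest p between genotypes, 7 have windows, and 5 of their 9 windows hold a match. The same held for 1 of 7 windows of the 12 largest NP-higher genes and 2 of 7 of the 12 largest AF-higher genes in cKO. A match is a run of letters and not a binding site.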

How the data were processed

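RNA of nucleus pulposus and annulus fibrosus from 8 mice was measured on 16 one-colour arrays, in 4 groups of 4. Per the labels, RNA was purified on columns and biotin-labelled with a WT Plus kit, and the authors' deposited values are log2 signals after sst-RMA normalization (signal space transformation with robust multi-array averaging). Transcriptome Analysis Console was used, per the submitters' processing notes, and its version was not given in the sources used here. Cut-offs in the labels, a detection p-value and a p-value of 0.05 and a fold of 1.75, were not seen in the deposited table, which holds 28846 probe sets from 2.57 to 19.93. Control probe sets were left out, no value was renormalized, and 0 columns were unused.

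A linear model in limma 3.58.1 (R 4.3.3) was fitted to the 22206 transcript probe sets on all 16 arrays, with the animal as a block (residual df 6, prior df 6.81) and 3 contrasts: NP minus AF in cKO, the same in CTR, and their difference. NP and AF arrays with 1 animal code come from 1 animal, which is the ground for pairing; the correlation of the 2 arrays' deviations from their group means ran from -0.293 to 0.348 and was over 0.1 in 3 of 8 animals. The code was tested on simulated data. Array medians lay between 6.66 and 6.89.

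The question and the gene lists were chosen with earlier results of these data known. Rules for naming took the 12 largest differences per direction in cKO without overlap, the 8 per direction largest in both genotypes, the 12 smallest p between genotypes (none passed), the 8 largest gaps among those called in 1 genotype alone, up to 4 and up to 3 members per list by p, all SOX factors and the tissue markers. Not all genes of these rules are named in the text, and further list members are named beside them. For each gene 1 probe set was used, and predicted genes were not named. Lists are described by counts and medians, without a test. Symbols are those of the platform annotation, and all 19572 Entrez identifiers matched RefSeq. Upstream sequences are RefSeq's on GRCm38.p6. Alternatives were no block or a random one, 1 genotype alone, array weights, an intensity trend, centring on array medians, renewed quantile normalization, leaving out dim probe sets, a single probe set for each gene, the labels' cut-offs, and omission of each animal or of the arrays in doubt. A floor at background, alone and with the filter, was chosen after seeing the data.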

Additional observations from a re-analysis of the deposited data

Results flagged for a closer look

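Of 166 groups of 4 arrays tested for a far value, 14 held one, and chance gives about 1 in 20. In NP of cKO mice the array of M4 was the far one for Col3a1 (6.64), Thbs1 (7.35) and Comp (11.53), each time the highest. M2 was far in NP for Col1a2 (6.98, lowest), Ccn6 (5.4, lowest) and Krt7 (13.27, highest), and M3 for Retnlg (5.52, lowest) and for the mean of the neutrophil list (5.62, lowest). In AF of cKO mice M4 was far and lowest for the neutrophil genes S100a8 (13.05) and S100a9 (12.49) and the macrophage-type chitinase gene Chil3 (8.75), and also for the mean of the list of carbonic anhydrases, aquaporins and osmotic genes (8.02). M2 was lowest for Col9a3 (9.25) and M3 for the mean of the keratin and junction list (7.81). None of these values was left out of the results.

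For 2 genes all cKO animals differed one way and all CTR animals the other. Gal3st2 was higher in NP of the 4 cKO animals and in AF of the 4 CTR animals, and the genotypes differed by 1.62. Nmur1, a neuromedin receptor with both cKO means under background, did the same with a difference of 1.72. Neither passed over all probe sets (adjusted p = 0.624 each, limma).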

How the results depend on the processing

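The counts depended most on the low signals and on single animals. The filter on dim probe sets left 11753 of 22206 to test and gave 3100 calls in cKO, 2652 in CTR and 1713 in both; with the remaining low signals raised to background these were 2964, 2607 and 1645, and with all low signals raised and no filter 1133, 1442 and 722, where the prior df of the fit fell to 0.358. Leaving out 1 animal gave 3000 (without M3) to 5966 (without C2) calls in cKO, with 3224 without M1 and 3469 without M2; 2354 (without C1) to 4086 in CTR; and 1802 (without C1) to 2763 in both. The difference between genotypes was called for 0 probe sets in each of these. It was called for 1, Glipr1 (-2.73, adjusted p = 0.0183, against -1.82 and 0.687 with all arrays), without the AF arrays of M2 and M4, and for 1122 at the labels' thresholds, which do not adjust p. Without the replicate block there were 5754 calls in cKO (5173 shared with the paired fit), 4462 in CTR, 2929 in both and 0 between genotypes. Over 181 cKO differences of genes chosen by the naming rules, 3587 of 3721 values under 21 of the alternatives kept direction and side of the threshold. Of the rest, 126 lost their call, 8 gained one and 0 changed sign. Genes chosen from the lists entered only if already called. The floor on all low signals without the filter, which gave 1133 calls in cKO, was left out of this count. A change of block alone, the trend, the dim filter, 1 probe set per gene, the labels' cut-offs and omission of a CTR animal leave the cKO estimate as it is. No sign could change there. Acan and Acta2 lost their calls without the block (adjusted p = 0.128 and 0.127). Signals under 6.59 are not told apart from background: 1296 of the 2834 NP-higher cKO calls (45.7%) and 519 of the 2746 AF-higher ones (18.9%) had both means there, so the NP count rests more on dim probe sets. The negative controls differed by a median of 0.24 in cKO and 0.06 in CTR.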

Other observations

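Further groups had called members on both sides, several with more on the AF side. Over all probe sets 12.4% were called higher in AF of cKO mice and 12.8% higher in NP. Of 31 genes of glycosaminoglycan and hyaluronan synthesis, 10 were higher in AF of cKO mice, among them the chondroitin sulfate enzymes Csgalnact2 (-3.09) and Chst15 (-3.09, or -2.37 counted from background) and the sulfate transporter Slc26a2 (-1.28), and 2 in NP, Ext1 (0.88) and the hyaluronan synthase Has3, the latter with both means under background. In CTR the counts were 11 and 2. Of 20 genes of basement membrane and laminin receptors, 8 were higher in AF, such as Lama2 (-3.02, or -1.17 from background), and 3 in NP, the laminin chains Lamb3 (1.80) and Lama3 (0.90, or 0.17 from background) and the laminin receptor Bcam (0.94). Lama3 and Bcam lost their calls without M1 or M3, and the AF count of 8 fell to 4, 3 and 2 without M1, M2 and M3. Among 26 carbonic anhydrases, aquaporins and osmotic genes, 7 were higher in AF, led by the water channel Aqp1 (-3.86) of vessels and red cells, and 3 in NP: Slc6a12, the hypoxia-induced Car9 (1.22) and Car7, with both means under background. The AF count of 7 fell to 3 without M1 and to 5 without M2 or M3. Tagln, an actin-binding protein of contractile cells, was higher in NP of cKO mice, with NP signals of 12.44, 14.92, 10.47 and 11.34 and AF signals of 10.55, 11.22, 8.77 and 8.28 in M1 to M4. It differed by 2.59 (SE 0.37, adjusted p = 0.000472) in cKO and 1.06 (adjusted p = 0.0619) in CTR, and by 1.53 between genotypes (adjusted p = 0.687). Its list of pericyte and smooth muscle genes had 7 of 14 higher in AF, falling to 4 without M2 or M3, and 2 in NP, Tagln and Acta2.

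Interferon response genes were called higher in NP for 7 of 26 in CTR and 2 in cKO, and higher in AF for 3 and 4. Without 1 animal the cKO counts fell to as few as 0 in NP (M3) and 2 in AF (M1, M2 or M4). Irf7, a regulator of interferon genes, was 1.86 in CTR and 0.16 in cKO, the latter not called, and the difference between genotypes did not pass (adjusted p = 0.687). The unadjusted p between genotypes was under 0.05 for 9 of the 26, against 7.2% of all probe sets. Macrophage markers were higher in AF for 11 of 21 in cKO and 6 in CTR, osteoclast markers for 5 of 14 and 4, and apoptosis genes for 5 of 30 and 3, with 1, Pmaip1, in NP in each. Over all probe sets 12.4% were called higher in AF and 12.8% in NP in cKO, and 9.59% and 9.21% in CTR. The apoptosis counts, and the interferon counts in cKO, lie near or under these shares. The osteoclast count fell to 3 without M3 and the apoptosis count to 2 without M1 and 3 without M2. The macrophage count in cKO was 9, 8, 8 and 12 without M1 to M4. Of the 11 macrophage markers called, 2 had both cKO means under background. Counted from background, the median of that list was -0.07 in cKO and 0 in CTR. Of 13 glial-type genes 3 were higher in AF in cKO, among them Gjc3 (-1.47 in cKO, -3.53 in CTR) and Mbp (-3.73 and -2.04), and 1 in NP, Cryab (1.30). Leaving out 1 animal ended these calls: Gjc3 without M1, M2 or M3, Mbp without M1 or M2, and Cryab without M2 or M3. Of 13 nerve and Schwann cell markers only Mbp was called, of 12 lymphocyte markers 1 was higher in AF (Ebf1) and 4 in NP, and of 11 adipocyte markers 2 on each side. The lymphocyte count of 4 fell to 1, 0, 1 and 1 without M1 to M4, and 3 of the 4 had both means under background. The adipocyte counts fell to 1 each without M1, and to 0 in NP and 1 in AF without M2. Of 13 epidermal markers 3 were called in AF and 2, Krt5 and Krt14, in NP, these 2 with both means under background. Of 16 hedgehog genes 10 were higher in AF and 2 in NP in cKO, against 9 and 2 in CTR.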
